A study of Mus musculus with 15 samples.

Results

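The genes described here are the nuclear genes of the mitochondrial respiratory chain and of ATP synthase, measured in the hippocampus of mice that lack 1 or both corticosteroid receptors in the forebrain. They were taken as the array probes whose accession resolved to a gene symbol starting with Nduf, Sdha, Sdhb, Sdhc, Sdhd, Uqcr, Cox4, Cox5, Cox6, Cox7, Cox8 or Atp5, and whose signal the scanner software marked as well above background on at least 3 of the 15 arrays. This kept 94 of 95 such genes and 120 of 121 probes, out of 22872 genes and 30882 probes tested in all. Complex I contributed 7 core subunits, 30 accessory subunits and 7 assembly factors, complex II 4 subunits and 4 assembly factors, complex III 8 subunits, complex IV 17 and complex V 17. Subunits encoded by mitochondrial DNA have other symbols and are not part of the set.

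The samples were whole hippocampi from both hemispheres of male C57BL/6 mice of about 2.5 months, 1 array per sample. GREmx1-cre mice (n = 4) lack the glucocorticoid receptor (GR, gene Nr3c1), MREmx1-cre mice (n = 4) lack the mineralocorticoid receptor (MR, gene Nr3c2), and GRMREmx1-cre mice (n = 3) lack both. The dflox controls (n = 4) carry floxed alleles of both receptor genes and are not labelled with the Cre transgene. Emx1-Cre acts in the lineage of forebrain excitatory neurons and many forebrain glia, so interneurons, microglia and vessels of a knockout hippocampus keep the receptors. The GREmx1-cre and MREmx1-cre mice came from crosses of the singly floxed lines, so they do not match dflox at the floxed allele of the other receptor.

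Complex I takes electrons from NADH and complex II from succinate, both pass them through ubiquinone to complex III, and cytochrome c carries them on to complex IV, which reduces oxygen. Complexes I, III and IV pump protons across the inner membrane, and complex V, the ATP synthase, uses the return flow to make ATP. In hippocampus most of this ATP pays for ion pumping after synaptic activity, and neurons hold much of the respiratory capacity of the tissue.

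The labels were first checked at the targeted genes, in log2 units relative to each array's 75th percentile of intensity. Nr3c1 lay between -0.66 and -0.53 in GREmx1-cre, between 2.08 and 2.28 in MREmx1-cre and between -0.08 and 0.09 in GRMREmx1-cre, against 1.49 to 1.79 in dflox. Nr3c2 lay between -3.15 and -3.04 in GREmx1-cre, between -3.76 and -3.46 in MREmx1-cre and between -4.01 and -3.71 in GRMREmx1-cre, against -3.65 to -3.36 in dflox, so MREmx1-cre and dflox overlapped. Whether the probes lie in the deleted exons is not given, so the Nr3c2 probe may check nothing. The arrays of a genotype shared 1 slide with no other genotype on it, so a slide effect and a genotype effect cannot be told apart. All 9 neuron markers were well above background on all 15 arrays, and 2 arrays stood apart in tissue next to the hippocampus: GREmx1-cre replicate 1 had the thalamus and habenula markers 0.84 above the all-array mean, and MREmx1-cre replicate 2 had the choroid plexus markers at -4.37.

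Respiratory chain transcripts were on the whole slightly lower in the double knockout, by about 0.1 log2 units, and most single members did not pass a test. The mean over the 94 genes, relative to the mean of all 15 arrays, was -0.08, -0.06 and -0.05 on the 3 GRMREmx1-cre arrays. It was between -0.00 and 0.11 on the GREmx1-cre arrays, between -0.09 and 0.05 on the MREmx1-cre arrays and between -0.01 and 0.04 on the dflox arrays. The GRMREmx1-cre arrays lay below all GREmx1-cre and all dflox arrays, and MREmx1-cre replicate 1 lay lower than all 3 of them. Under quantile normalization the median difference of the 94 genes in GRMREmx1-cre was smaller. It was -0.03 from dflox, -0.05 from GREmx1-cre and -0.01 from MREmx1-cre, where all genes were at -0.01 as well. In hippocampal RNA, fewer cells of a type and less RNA per cell cannot be told apart.

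**Figure D1:**
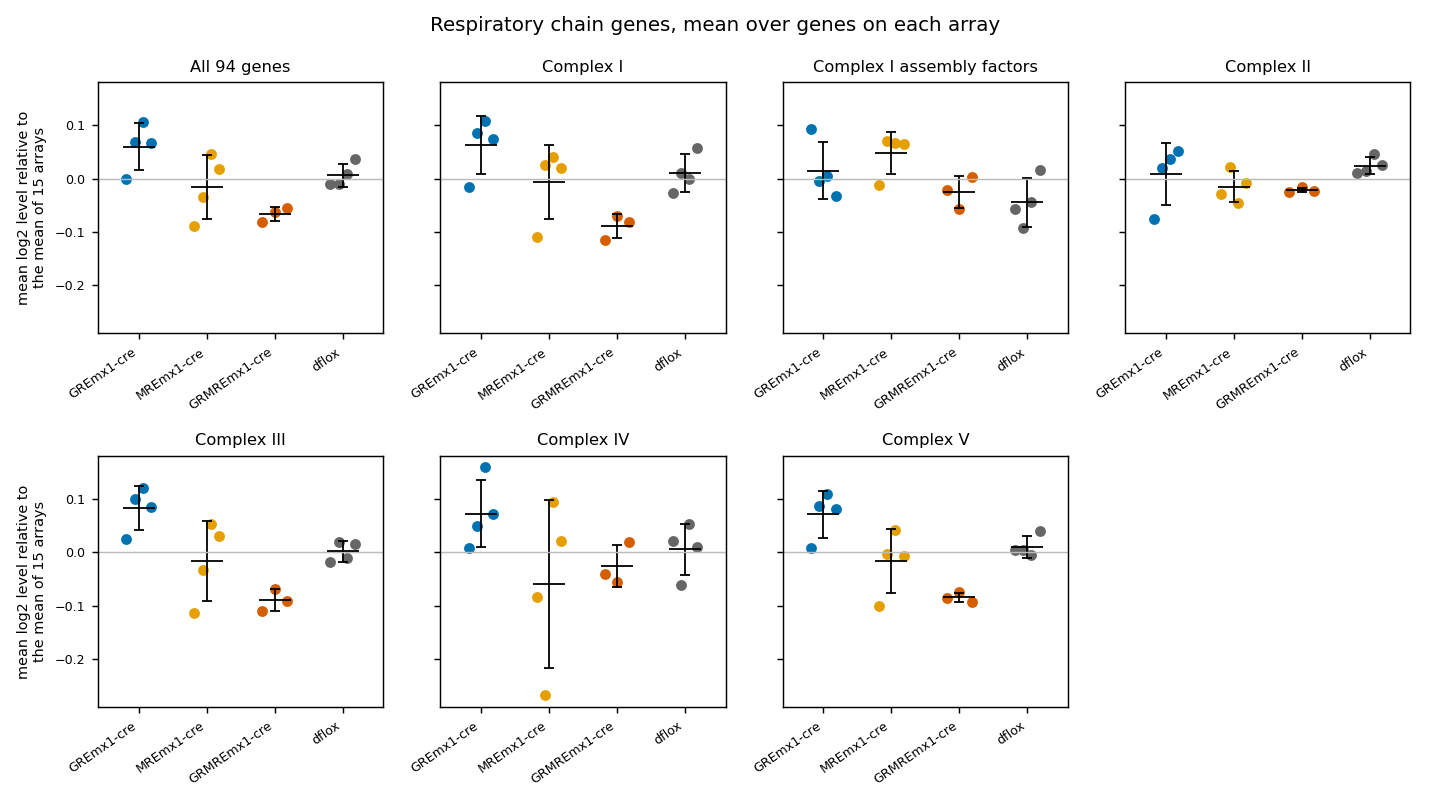
Mean log2 level of the 94 genes and of each complex on each array (y axis, relative to the mean of the 15 arrays), with groups on the x axis; dots are arrays, the dash and bar are the mean and SD. The GRMREmx1-cre arrays sit at -0.08 to -0.05 for all genes, complex I, III and V repeat that order, and the low complex IV point at -0.27 is MREmx1-cre replicate 2.

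In GRMREmx1-cre against dflox, 77 of 94 genes were lower and 17 higher by sign, with a median log2 difference of -0.09 against 0.03 over all 22872 genes. The limma fit with Benjamini-Hochberg adjustment over all genes passed 11 of the 94 at 0.05, 9 lower and 2 higher, where 16.3% of all genes passed in either direction 4.84% passed lower and 11.4% higher. In 36 of the 94 genes every GRMREmx1-cre array lay below every dflox array (38.3%), against 10.1% of all genes. The members are bright on this array: 89 of the 94 had a mean level above the 75th percentile, and over the 8433 genes above it the median difference was -0.02 with 7.73% passing lower.

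Against GREmx1-cre, 79 of the 94 genes were lower in GRMREmx1-cre and 15 higher, with a median of -0.14 against 0.02 over all genes, and 21 passed, 20 lower and 1 higher, where 16.1% of all genes passed in either direction 6.91% passed lower and 9.23% higher. Every GRMREmx1-cre array lay below every GREmx1-cre array for 40 of the 94 genes (42.6%), against 12.7% of all genes. Over the 8433 genes above the 75th percentile the median against GREmx1-cre was -0.02, with 55.4% lower by sign and 10.7% passing lower. Against MREmx1-cre the median was -0.08 against 0.00 over all genes, and 4 genes passed, 2 lower and 2 higher, where 2.98% of all genes passed, 0.625% lower and 2.35% higher. Every GRMREmx1-cre array lay below every MREmx1-cre array for 23 of the 94 genes (24.5%), against 7.15% of all genes. Over the 8433 genes above the 75th percentile the median against MREmx1-cre was -0.04, with 63.8% lower by sign and 0.961% passing lower.

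The single knockouts differed little from dflox. In GREmx1-cre 71 of 94 genes were higher by sign, with a median of 0.05 against 0.02 over all genes, and the limma fit passed 0 of them, where 3.15% of all genes passed, 2.26% higher and 0.888% lower. An unadjusted limma p under 0.05 was found for 16 of the 94, 14 of them higher, and for 4370 of all 22872 genes. In MREmx1-cre 43 were higher and 51 lower, with a median of -0.01 against 0.04 over all genes, and 2 passed, 1 higher and 1 lower, where 6.80% of all genes passed, 4.21% higher and 2.60% lower. Among those that did not pass, Atp5l, a membrane subunit of ATP synthase, differed by 0.16 ± 0.057 in GREmx1-cre (adjusted p = 0.144), and in MREmx1-cre Atp5j2 differed by -0.14 ± 0.044 (adjusted p = 0.0679) and Ndufab1, the mitochondrial acyl carrier protein, by -0.12 ± 0.047 (adjusted p = 0.173). The 3 comparisons with dflox share its 4 arrays. In all, 26 of the 94 genes passed in at least 1 of the 6 comparisons, 68 passed in none, and 7 passed as lower in GRMREmx1-cre against both dflox and GREmx1-cre. The matching counts over all genes were not taken, so these counts cannot be set against a background.

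**Figure D2:**
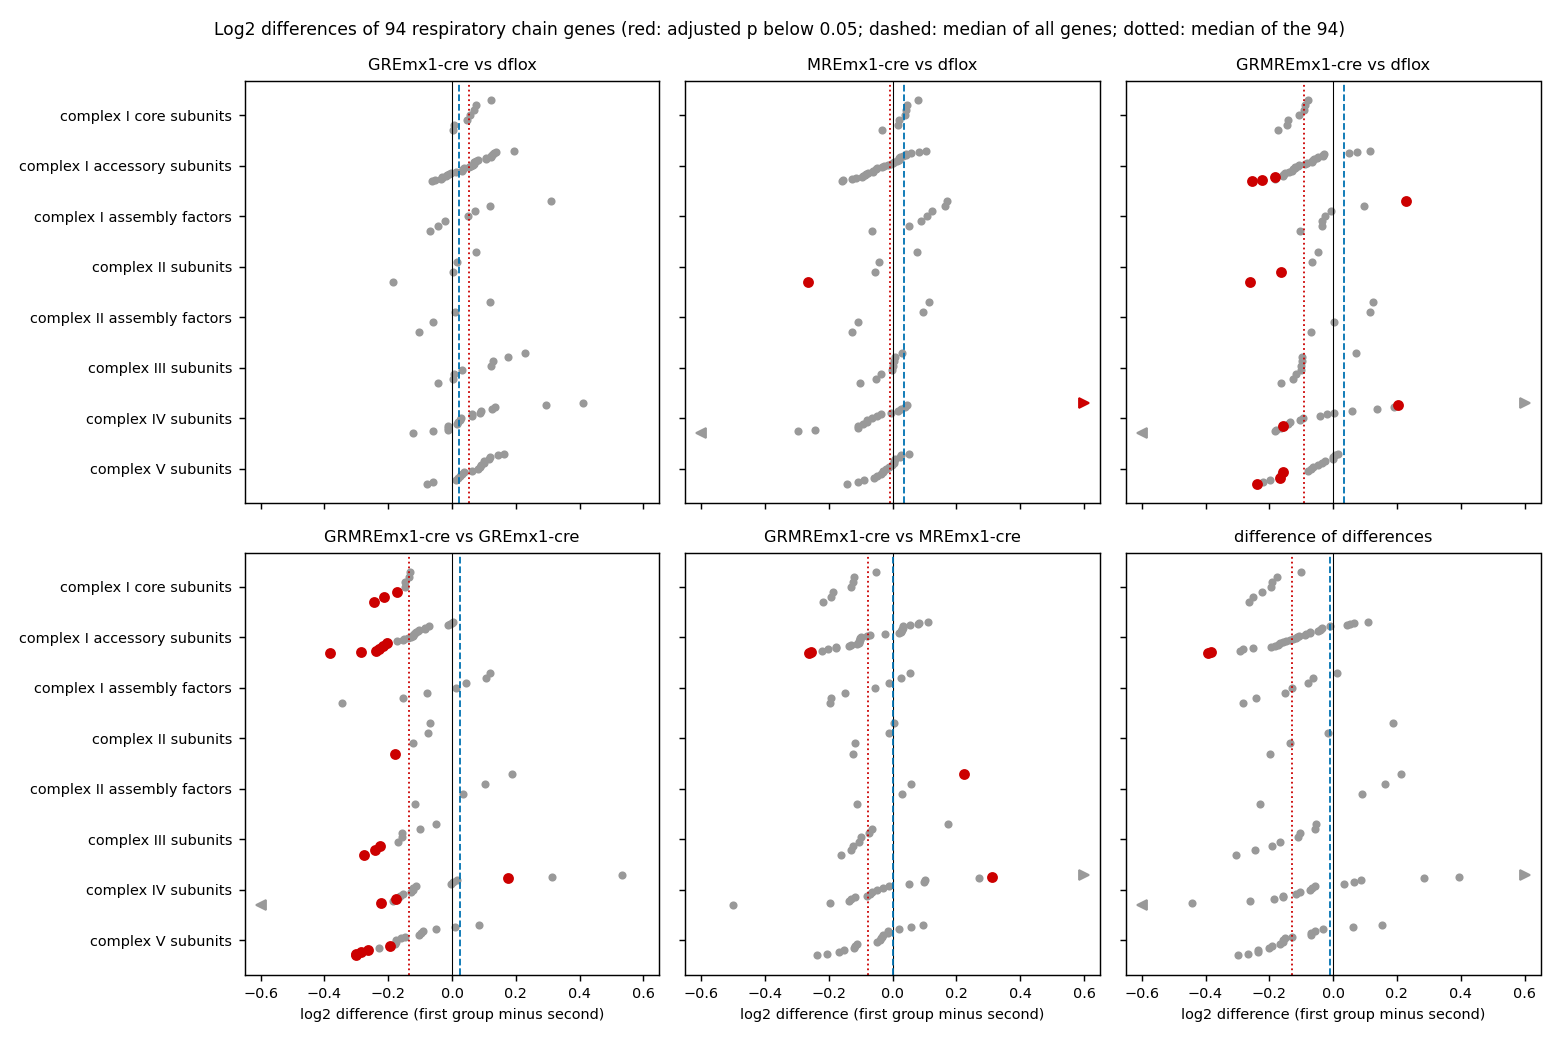
Log2 difference of each of the 94 genes (x axis) by class (y axis) in the 6 comparisons; red dots passed limma at an adjusted p of 0.05, triangles lie beyond the axis, the dotted line is the median of the 94 and the dashed line that of all genes. The dotted line lies left of the dashed one in each comparison except GREmx1-cre against dflox. It is at -0.09 against 0.03 for GRMREmx1-cre against dflox, and at -0.01 against 0.04 for MREmx1-cre against dflox.

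The size of these shifts depends on how arrays are scaled. Quantile normalization, which forces 1 shared intensity distribution on all arrays, left the median of the 94 at -0.03 in GRMREmx1-cre against dflox (5 genes passed), -0.05 against GREmx1-cre (11 passed) and -0.01 against MREmx1-cre, where the median of all genes was -0.01 as well. Of all genes, 14.2% passed against dflox and 15.7% against GREmx1-cre under quantile normalization, with medians of 0.01 and 0.02. Scaling to each array's median gave -0.17 with 18 passing against dflox, all lower, and -0.16 with 18 passing against GREmx1-cre. Median scaling put all genes at -0.05 against dflox, where 14.2% passed, and at -0.005 against GREmx1-cre. Over the 8433 bright genes its medians were -0.10 and -0.05, with 11.9% and 9.25% passing lower and 2.30% and 3.64% higher. Normexp background correction gave -0.37 against dflox while it moved the median of all genes to 0.42, and its estimated background means were -30.6, -804 and -107 on the 3 GRMREmx1-cre arrays, against -0.33 to 2.42 on the other arrays. The median of the 94 kept its sign in each of the 6 comparisons under all 4 scalings, at 0.00 for GREmx1-cre against dflox under median scaling.

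**Figure D3:**
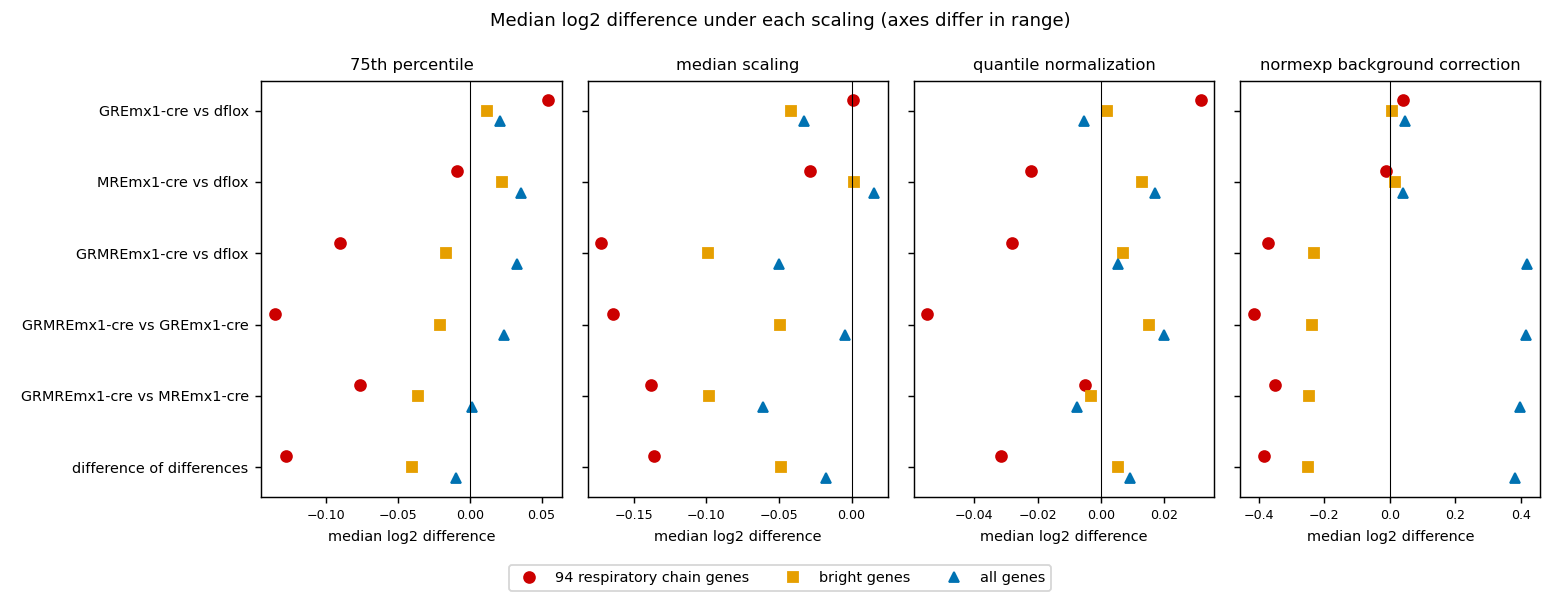
Median log2 difference (x axis, a different range in each panel) in the 6 comparisons (y axis) under 4 scalings, for the 94 respiratory chain genes (circles), the genes above the 75th percentile (squares) and all genes (triangles). The circle for GRMREmx1-cre against MREmx1-cre is at -0.08 in the first panel and at -0.01, beside the other markers, under quantile normalization.

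Complex I has the most members. Its 7 core subunits, which hold the flavin, the iron-sulfur clusters and the ubiquinone site, were each lower in GRMREmx1-cre than in dflox, with differences of -0.17 to -0.08 and none past the threshold. Against GREmx1-cre 3 of the 7 fell, where 6.91% of all genes and 10.7% of the 8433 genes above the 75th percentile passed lower. The 3 included the iron-sulfur proteins Ndufs7, lower by 0.25 on the log2 scale (adjusted p = 0.0205), and Ndufs1, by 0.17 (adjusted p = 0.0410). Ndufs7 read 4.67, 4.78 and 4.73 in GRMREmx1-cre, against 4.85, 5.02, 5.03 and 4.99 in GREmx1-cre. The groups did not overlap, and the Ndufs7 call was lost in 4 of 15 fits that left out 1 array, with differences of -0.25 to -0.22.

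Among the 30 accessory subunits, which surround the core and are needed for its assembly and stability, 27 were lower by sign in GRMREmx1-cre than in dflox and 3 fell: Ndufa5, Ndufa11 and Ndufa13. In this comparison 4.84% of all genes and 7.73% of the 8433 genes above the 75th percentile passed lower. Ndufa5, a subunit of the matrix arm, read 5.50, 5.49 and 5.40 in GRMREmx1-cre, against 5.69, 5.82, 5.62 and 5.74 in dflox. The groups did not overlap, and the difference was -0.25 ± 0.061 (SE, limma, adjusted p = 0.0138), a level of 83.9% of dflox. Without GRMREmx1-cre replicate 3 it was -0.22 and no longer passed (adjusted p = 0.0611).

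Ndufa11, a membrane-arm subunit, read 1.5, 1.43 and 1.48 in GRMREmx1-cre, against 1.72, 1.74, 1.69 and 1.64 in dflox. The difference was -0.22 ± 0.050 (adjusted p = 0.00962), and its second probe gave -0.30. Without GRMREmx1-cre replicate 2 the difference was -0.20 and did not pass (adjusted p = 0.0502). Ndufa13, known also as GRIM-19 for a role in cell death, was lower by 0.18 on the log2 scale (adjusted p = 0.0483), and the call was lost in 12 of the 15 fits that left out 1 array. Under quantile normalization Ndufa13 differed by -0.01, while Ndufa5 and Ndufa11 still passed, at -0.17 and -0.21.

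Against GREmx1-cre, 29 of the 30 accessory subunits were lower by sign in GRMREmx1-cre and 6 fell. In this comparison 6.91% of all genes and 10.7% of the 8433 genes above the 75th percentile passed lower. Ndufa5 had the largest fall, at -0.38 ± 0.061 (adjusted p = 0.00145), and Ndufa9 followed at -0.29 ± 0.062 (adjusted p = 0.00826). Both calls held in each of the 15 fits that left out 1 array. Ndufb8 and Ndufb3 fell by 0.24 and 0.23 on the log2 scale, and Ndufa6 and Ndufa11 by 0.22 and 0.20 (adjusted p = 0.0104 to 0.0326). The Ndufb8 call was lost without GRMREmx1-cre replicate 1 (-0.22), without replicate 2 (-0.24) and under quantile normalization (-0.14).

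Ndufa9, which sits at the junction of the matrix and membrane arms, read 3.87, 4.0 and 3.97 in GRMREmx1-cre. It read 4.16, 4.22, 4.32 and 4.23 in GREmx1-cre, 4.08, 4.24, 4.22 and 4.29 in MREmx1-cre, and 4.08, 4.09, 4.05 and 4.20 in dflox. The 3 GRMREmx1-cre arrays were the lowest of the 15, while the difference from dflox, -0.16 ± 0.062, did not pass (adjusted p = 0.110). Against MREmx1-cre, Ndufa9 was lower by 0.26 (adjusted p = 0.0415) and Ndufa5 by 0.25 (adjusted p = 0.0438), calls that 10 and 12 of the 15 fits without 1 array lost.

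These 2 accessory subunits were also the members whose difference with and without MR itself differed with GR. The contrast, GRMREmx1-cre minus GREmx1-cre less MREmx1-cre minus dflox, was -0.39 ± 0.085 for Ndufa9 and -0.38 ± 0.083 for Ndufa5 (limma, adjusted p = 0.0466 for both), where 1.29% of all genes passed, 0.778% below 0 and 0.512% above. Ndufa5 differed by 0.00 in MREmx1-cre from dflox and by -0.38 in GRMREmx1-cre from GREmx1-cre, and Ndufa9 by 0.11 and -0.29 in the same pairs. Each of these calls was lost in 13 of the 15 fits that left out 1 array, with Ndufa9 between -0.43 and -0.35 and Ndufa5 between -0.42 and -0.35 over all 15. Under quantile normalization Ndufa9 still passed, at -0.32, and Ndufa5 did not, at -0.25. Under median scaling (-0.40 and -0.39) and without the filter on dim probes (adjusted p = 0.0858 and 0.0866), Ndufa9 and Ndufa5 both missed the threshold. The median of the contrast over the 94 genes was -0.13, against -0.01 over all genes.

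The promoters of 79 of the 94 genes were matched by symbol in a RefSeq table of build GRCm38.p6, each covering 250 bases before to 50 after the transcript start. They were searched on both strands for letters bound by NRF1 (GCGCATGC), ETS factors such as GABPA (CCGGAAGT) and YY1 (AAGATGGC), known activators of respiratory genes, and for the glucocorticoid response element as 2 AGAACA half-sites facing each other across 3 bases. The NRF1 letters were in 12 of the 79 (15.2%), against 3.05% of the 27025 genes in the table and 4.95% of the 12675 genes tested here that it holds. The YY1 letters were in 10 (12.7%), against 3.19% and 4.43%. The ETS letters were in 5 (6.33%), against 4.31% and 7.42%. The receptor element was in 0 of the 79 and in 3 of the 27025. A match is a run of letters, not a measured site, and its absence says only that these letters are not in this window. Printed for comparison are the 2 accessory subunits of the contrast above, Ndufa11 with its 2 probes, and Cox7c, which was higher in GRMREmx1-cre, with motif letters in capitals.
Ndufa5, minus strand, chr6:24527477-24527776, 1 of 2 table entries: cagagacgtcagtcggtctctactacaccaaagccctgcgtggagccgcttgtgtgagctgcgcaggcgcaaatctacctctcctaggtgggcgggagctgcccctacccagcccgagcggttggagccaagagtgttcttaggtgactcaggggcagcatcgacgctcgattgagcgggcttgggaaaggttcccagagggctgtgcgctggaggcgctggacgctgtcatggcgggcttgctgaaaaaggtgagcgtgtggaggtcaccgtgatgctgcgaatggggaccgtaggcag
Ndufa9, minus strand, chr6:126849095-126849394, with a YY1 match near the start: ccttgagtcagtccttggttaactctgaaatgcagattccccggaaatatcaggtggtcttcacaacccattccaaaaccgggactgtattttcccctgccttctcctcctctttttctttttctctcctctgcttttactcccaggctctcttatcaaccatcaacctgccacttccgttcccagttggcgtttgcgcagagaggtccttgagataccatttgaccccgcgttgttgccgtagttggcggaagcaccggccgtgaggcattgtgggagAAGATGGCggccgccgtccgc
Ndufa11, plus strand, chr17:56717512-56717811, with 2 overlapping NRF1 matches on opposite strands: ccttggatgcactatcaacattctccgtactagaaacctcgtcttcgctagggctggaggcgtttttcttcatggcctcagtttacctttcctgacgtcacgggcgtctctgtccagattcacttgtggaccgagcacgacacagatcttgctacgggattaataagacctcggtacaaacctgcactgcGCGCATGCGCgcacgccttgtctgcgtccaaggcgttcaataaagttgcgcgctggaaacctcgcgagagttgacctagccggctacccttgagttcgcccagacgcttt
Cox7c, minus strand, chr13:86046746-86047045: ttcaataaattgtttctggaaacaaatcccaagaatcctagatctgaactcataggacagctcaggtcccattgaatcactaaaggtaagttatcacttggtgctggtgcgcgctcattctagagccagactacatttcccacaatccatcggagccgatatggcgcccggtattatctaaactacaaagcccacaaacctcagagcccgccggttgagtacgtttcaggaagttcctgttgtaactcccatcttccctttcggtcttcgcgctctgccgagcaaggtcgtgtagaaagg

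The windows of Ndufa5 and Cox7c, which differed from dflox in opposite directions, both hold none of the 4 motifs. Of the genes past the threshold as lower against GREmx1-cre, Ndufa6, Ndufa11, Cox6a1 and Uqcrc1 hold the NRF1 letters, Ndufa9, Ndufb8, Ndufs7 and Atp5pb the YY1 letters, and Atp5h and Uqcrh the ETS letters.

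The 7 complex I assembly factors, chaperones that leave the finished complex, lay near 0 as a list. Their median difference in GRMREmx1-cre was -0.03 against dflox and 0.01 against GREmx1-cre. Ndufaf2, which acts late in assembly, rose in GRMREmx1-cre by 0.23 ± 0.062 (adjusted p = 0.0259). It read 2.81, 2.84 and 2.80 in GRMREmx1-cre, against 2.54, 2.65, 2.53 and 2.63 in dflox, with no overlap. The call was lost in 5 of 15 fits without 1 array. Under normexp background correction its difference was -0.06. In GRMREmx1-cre against dflox that correction gave a median of -0.23 for the genes above the 75th percentile. The median was -0.37 for the respiratory chain genes and 0.42 for all genes. Why Ndufaf2 changed sign was not tested. Ndufaf1, an early assembly factor, was the list's member of smallest p against GREmx1-cre, at -0.15 ± 0.059 (adjusted p = 0.0969).

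Complex II, the succinate dehydrogenase that also works in the tricarboxylic acid cycle, has 4 subunits, and all were lower by sign in GRMREmx1-cre than in dflox. Its membrane anchors fell: Sdhd by 0.26 on the log2 scale (adjusted p = 0.0149) and Sdhc by 0.16 (adjusted p = 0.0447). The catalytic pair Sdha and Sdhb differed by -0.07 and -0.05 and did not pass. The Sdhc call was lost in 11 of the 15 fits without 1 array and under quantile normalization (-0.14).

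Sdhd was low on the arrays of all 3 knockouts. It read 3.6, 3.77, 3.67 and 3.78 in GREmx1-cre, 3.68, 3.62, 3.49 and 3.71 in MREmx1-cre, and 3.67, 3.67 and 3.55 in GRMREmx1-cre, against 3.90, 3.84, 3.87 and 3.95 in dflox. No knockout array reached the lowest dflox array. The fall of 0.26 in MREmx1-cre passed (adjusted p = 0.0186), and the difference of -0.18 ± 0.059 in GREmx1-cre did not (adjusted p = 0.116). Without dflox replicate 4 the MREmx1-cre difference was -0.25 (adjusted p = 0.0534), and without GRMREmx1-cre replicate 3 the GRMREmx1-cre difference was -0.22 (adjusted p = 0.0686). Since the 3 comparisons share the dflox arrays, they are not independent of each other.

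The 4 complex II assembly factors were higher by sign in 3 genes, with a median of 0.06 in GRMREmx1-cre against dflox and 0 past the threshold. Sdhaf4, which protects the flavin subunit before it joins the complex, was higher in GRMREmx1-cre than in MREmx1-cre by 0.22 ± 0.053 (adjusted p = 0.0398). It read 2.82, 2.87 and 2.77 in GRMREmx1-cre, against 2.64, 2.60, 2.61 and 2.54 in MREmx1-cre. The groups did not overlap, the call was lost in 11 of the 15 fits without 1 array, and under median scaling the difference was 0.16 and did not pass.

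Of the 8 complex III subunits, 0 passed in GRMREmx1-cre against dflox, and 7 were lower by sign with a median of -0.10. Uqcrq had the smallest p there, at -0.16 ± 0.065 (adjusted p = 0.110). Against GREmx1-cre all 8 were lower and 3 fell, where 6.91% of all genes and 10.7% of the 8433 genes above the 75th percentile passed lower. Uqcrc1, a core protein, fell by 0.27 on the log2 scale (adjusted p = 0.0182). Uqcrh, the hinge protein that docks cytochrome c1, fell by 0.24 (adjusted p = 0.0144), and Uqcrb by 0.23 (adjusted p = 0.0490). Uqcrc1 read 5.08, 5.21 and 5.10 in GRMREmx1-cre, against 5.30, 5.36, 5.45 and 5.51 in GREmx1-cre, and its second probe also gave -0.27. The second probe of Uqcrh gave -0.13. The Uqcrc1 call was lost without GRMREmx1-cre replicate 1 (-0.25) and replicate 3 (-0.26). The Uqcrh call was lost without GRMREmx1-cre replicate 1 (-0.22) and under quantile normalization (-0.12). Uqcrfs1, the Rieske iron-sulfur protein, was the complex III member of smallest p in GREmx1-cre against dflox, at 0.23 ± 0.070 (adjusted p = 0.0992).

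Complex IV had members past the threshold in both directions. In GRMREmx1-cre 1 of its 17 genes passed lower and 1 higher against dflox, and 2 lower and 1 higher against GREmx1-cre. Against dflox 4.84% of all genes passed lower and 11.4% higher, and 7.73% and 6.87% of the 8433 genes above the 75th percentile. Against GREmx1-cre 6.91% of all genes passed lower and 9.23% higher, and 10.7% and 7.23% of those 8433. Cox7a2l fell in GRMREmx1-cre by 0.16 against dflox (adjusted p = 0.0202) and by 0.18 against GREmx1-cre (adjusted p = 0.0124). It read 3.07, 3.0 and 3.05 in GRMREmx1-cre, against 3.21, 3.23, 3.12 and 3.22 in dflox. The call against dflox was lost in 3 of 15 fits without 1 array, and that against GREmx1-cre without GRMREmx1-cre replicate 2 (-0.15). Under quantile normalization neither passed, at -0.13 and -0.12.

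Cox7c, a small structural subunit, was the member that rose in GRMREmx1-cre against each other group. It read 2.71, 2.77 and 2.67 in GRMREmx1-cre. It read 2.57, 2.52, 2.60 and 2.49 in GREmx1-cre, 2.36, 2.44, 2.45 and 2.38 in MREmx1-cre, and 2.54, 2.46, 2.48 and 2.59 in dflox. The 3 GRMREmx1-cre arrays were the highest of the 15. The differences were 0.20 ± 0.048 against dflox (adjusted p = 0.0126), 0.18 against GREmx1-cre (adjusted p = 0.0273) and 0.31 against MREmx1-cre (adjusted p = 0.00450). The gene has 1 probe here. Against MREmx1-cre the call held without any single array, against dflox it was lost without GRMREmx1-cre replicate 2 (0.18), against GREmx1-cre it was lost in 4 of 15 fits, and all 3 differences were below 0 under normexp background correction (-0.13, -0.17 and -0.01). Under median scaling none of the 3 passed.

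The median of the 17 complex IV genes in GRMREmx1-cre against dflox was -0.10, and 0.03 under quantile normalization. Among the ubiquitous isoforms Cox4i1, an entry subunit for assembly, differed by -0.18 ± 0.069 in GRMREmx1-cre from dflox (adjusted p = 0.0933), Cox5a by -0.18 ± 0.059 (adjusted p = 0.0556), Cox5b by -0.14 and Cox6a1 by -0.10. None of these passed. Cox6a1 fell against GREmx1-cre by 0.22 (adjusted p = 0.0280). Cox6b1, Cox6c, Cox7a2, Cox7b and Cox8a lay between -0.10 and 0.06 against dflox, and Ndufa4, counted with complex I by its name but now known as a complex IV subunit, differed by -0.13 ± 0.070.

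Cox6a2, the heart and muscle isoform that in mouse brain is known from parvalbumin interneurons, rose in MREmx1-cre. It read 1.09, 1.42, 1.23 and 1.15 in MREmx1-cre, against 0.54, 0.64, 0.42 and 0.75 in dflox. The groups did not overlap, and the difference was 0.64 ± 0.167 (adjusted p = 0.0397), a level of 155% of dflox with a 95% interval on the log2 scale of 0.27 to 1.0. GREmx1-cre spread from 0.26 to 1.21 and GRMREmx1-cre from 0.59 to 0.86, neither past the threshold against dflox. Pvalb itself differed by -0.18 ± 0.101 in MREmx1-cre (adjusted p = 0.341), and 0 of 8 interneuron markers passed there. The Cox6a2 call was lost in 8 of the 15 fits that left out 1 array, each of the 4 dflox arrays among them, and under median scaling (0.62, adjusted p = 0.0846).

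Cox8b, the muscle and brown fat isoform of Cox8, had the widest range of levels among the 94. It read -0.98, -0.22, 0.08 and 0.58 in GREmx1-cre, -0.93, -3.04, -0.10 and -0.92 in MREmx1-cre, and -0.60, -2.08 and -1.17 in GRMREmx1-cre, against -0.14, -1.29, 0.11 and -0.87 in dflox. The lowest value was on MREmx1-cre replicate 2, the array whose choroid plexus markers were at -4.37. Across the 15 arrays Cox8b had a Pearson r of 0.87 with the mean of the 8 choroid plexus markers, and 0.84 over the 14 arrays without that one. These points share the dissection and the library. The difference of Cox8b in MREmx1-cre from dflox was -0.71, with a 95% interval of -1.95 to 0.54, and the part of choroid plexus in it was not tested.

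Cox7a1 and Cox6b2, further restricted isoforms, differed by -0.16 ± 0.147 and -0.14 ± 0.190 in GRMREmx1-cre from dflox, and Cox7b2 by 0.19 ± 0.149. Cox4i2, the isoform known for oxygen sensing in lung and pericytes, was the member nearest the detection limit that was kept. It was well above background on 11 of 15 arrays, with levels from -7.29 to -4.63, and differed by 0.83 in GRMREmx1-cre from dflox (95% interval -0.07 to 1.73). Cox8c, a testis isoform, was the 1 gene left out, with 0 of 15 arrays and levels from -8.80 to -7.07.

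**Figure D4:**
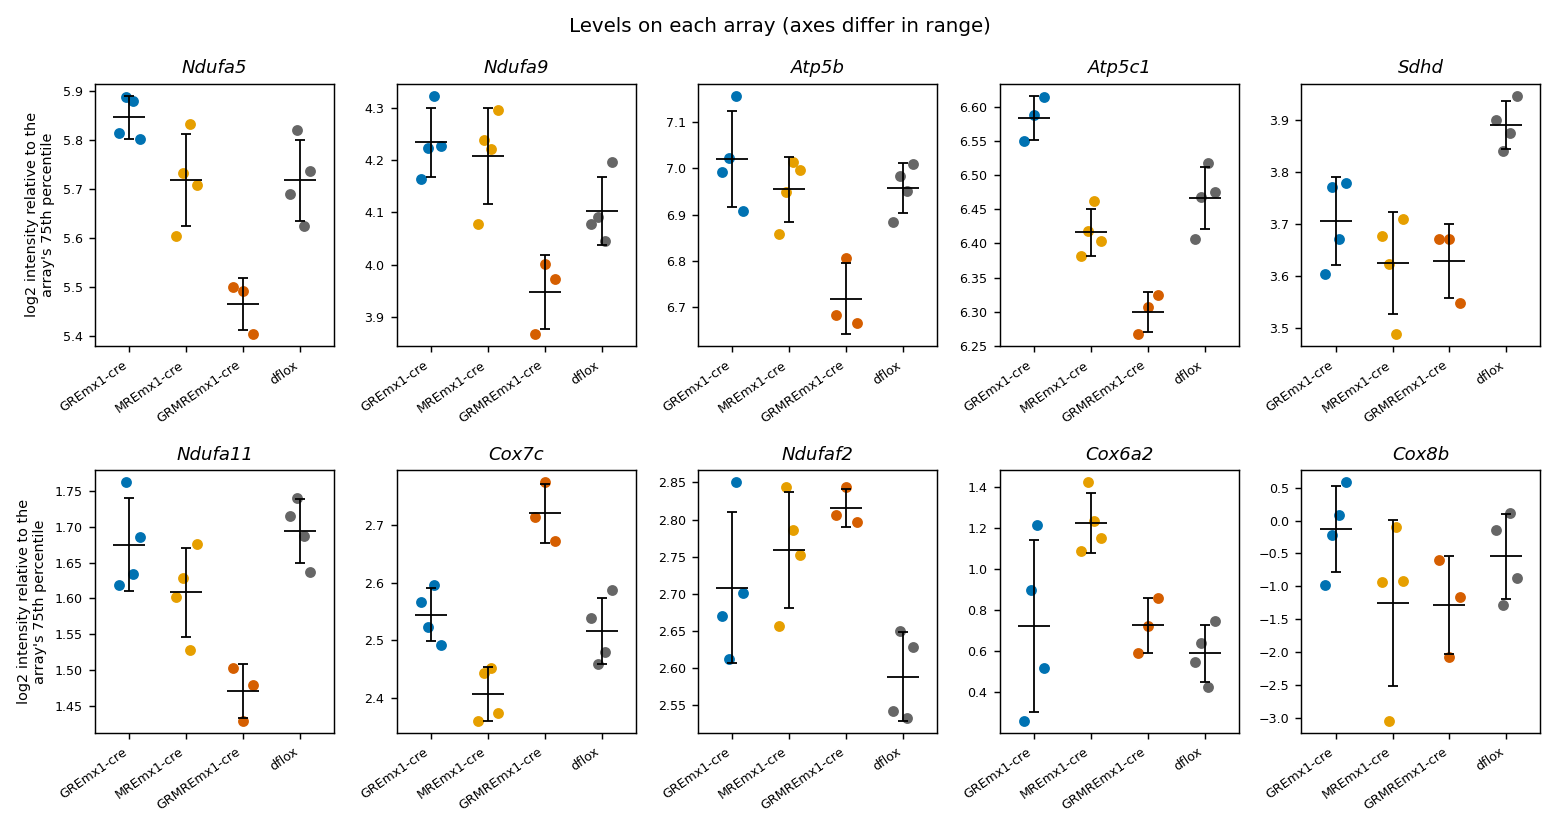
Levels of 10 genes on each array (y axis, log2 intensity relative to the array's 75th percentile, a different range in each panel) by group (x axis); dots are arrays, the dash and bar are the mean and SD. Ndufa5 and Ndufa9 are lowest and Cox7c is highest on the 3 GRMREmx1-cre arrays, Sdhd is lower on all 11 knockout arrays than on the 4 dflox arrays, and Cox8b on MREmx1-cre replicate 2 is at -3.04.

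Complex V, the ATP synthase, had calls in the catalytic head, the rotor and the stator. Of its 17 genes 15 were lower by sign in GRMREmx1-cre than in dflox and 3 fell. In this comparison 4.84% of all genes and 7.73% of the 8433 genes above the 75th percentile passed lower. Atp5b, the catalytic beta subunit, read 6.68, 6.81 and 6.67 in GRMREmx1-cre, against 6.88, 6.98, 6.95 and 7.01 in dflox, with no overlap and a difference of -0.24 ± 0.064 (adjusted p = 0.0242). Its other probes gave -0.18 and -0.08, the call was lost in 4 of 15 fits without 1 array, and it did not pass with the mean of its probes (-0.17) or under quantile normalization (-0.07).

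Atp5c1, the gamma subunit of the rotating shaft, read 6.27, 6.31 and 6.32 in GRMREmx1-cre, against 6.41, 6.47, 6.52 and 6.47 in dflox, a difference of -0.17 ± 0.043 (adjusted p = 0.0201). Without GRMREmx1-cre replicate 1 it was -0.15, and without replicate 2 it was -0.17, and neither passed. Atp5h, a subunit of the stator stalk, fell by 0.16 (adjusted p = 0.0425), with -0.10 at its second probe. The Atp5h call was lost in 8 of the 15 fits and with the mean of its probes (-0.13). Under quantile normalization Atp5c1 differed by -0.04 and Atp5h by -0.06, and neither passed.

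Against GREmx1-cre 5 of the 17 fell, where 6.91% of all genes and 10.7% of the 8433 genes above the 75th percentile passed lower. Atp5b fell by 0.30 on the log2 scale (adjusted p = 0.00771) and Atp5g1, a gene for the membrane ring, by 0.30 (adjusted p = 0.0139). Atp5c1 fell by 0.28 (adjusted p = 0.00184), Atp5pb of the stator by 0.26 (adjusted p = 0.00708) and Atp5h by 0.20 (adjusted p = 0.0162). The second probe of Atp5h gave -0.02 there. Atp5c1 read 6.55, 6.59 and 6.62 on 3 GREmx1-cre arrays, its spot on replicate 4 being left out as an outlier. The calls for Atp5b, Atp5c1 and Atp5pb held in each of the 15 fits without 1 array, under quantile normalization Atp5b (-0.08) and Atp5c1 (-0.14) did not pass, and that for Atp5g1 was lost without GRMREmx1-cre replicate 2 (-0.28) or replicate 3 (-0.29). The other genes that encode the same ring protein differed less, with Atp5g2 at -0.09 and Atp5g3 at -0.10 against GREmx1-cre, neither past the threshold.

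Most members varied together across arrays. The median Pearson r of a member with the mean of the others was 0.64 over the 15 arrays and 0.56 after group means were taken out, with 84 and 83 of 94 above 0. These values share each array's scaling. Atp5j had the highest r over the 15 arrays, 0.91, and Cox7b2 the lowest, -0.53. Outside the set, the 5 genes whose profile was most like the mean of the 94 were Pgbd5 (r = 0.94), Ttc39c (0.92), Ykt6 (0.91), Myh9 (0.90) and Plpbp (0.90), over 15 arrays and among 15784 genes.

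Replicates of one group were close for these genes. The median SD was 0.08 log2 units in GREmx1-cre, 0.08 in MREmx1-cre, 0.06 in GRMREmx1-cre and 0.06 in dflox, against 0.12, 0.13, 0.10 and 0.12 over all genes. The median standard error of a difference was 0.06, so shifts near the median of the set, about -0.09, lie within 2 standard errors for a typical gene.

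Other energy genes were compared by lists. Of 15 tricarboxylic acid cycle genes, 3 fell in GRMREmx1-cre against dflox, among them Suclg1 and Cs, by 0.20 and 0.21 on the log2 scale, and the median of the list was -0.12. Over all genes 4.84% passed lower in this comparison and 11.4% higher. Against GREmx1-cre 5 of the 15 fell, where 6.91% of all genes passed lower, with citrate synthase Cs at -0.30 ± 0.056 (adjusted p = 0.00354) and Idh3b at -0.28. The list kept a median below 0 under all 4 scalings, from -0.40 to -0.10 against dflox.

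Of 17 glycolysis genes, 3 fell in GRMREmx1-cre against dflox and 1 rose, where 16.3% of all genes passed. Against GREmx1-cre 6 of the 17 fell and 0 rose (median -0.14), where 6.91% of all genes passed lower. Against dflox the aldolases Aldoc and Aldoa fell by 0.54 and 0.30 and Pgk1 by 0.19, while hexokinase Hk2 rose by 0.46 ± 0.099 (adjusted p = 0.00674), and the median was -0.09. Aldoc is known in brain mainly from astrocytes. Prdx5, a mitochondrial peroxidase, fell by 0.35 against dflox (adjusted p = 0.00362) and by 0.46 against GREmx1-cre (adjusted p = 0.000851), the 1 call among 9 antioxidant and uncoupling genes.

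Genes that build the chain were taken as further lists. Of 20 complex IV assembly genes, Cox15 and Coa6 rose in GRMREmx1-cre against dflox by 0.18 each and 0 fell, a share near the 11.4% of all genes that passed higher. The median of the list was 0.01, below 0 under median scaling (-0.07) and normexp (-0.09). Lyrm7, an assembly factor for the Rieske protein, rose by 1.45 ± 0.244 (adjusted p = 0.00176), and Bcs1l, which inserts that protein, rose by 0.24 in MREmx1-cre (adjusted p = 0.00344). Of 78 mitochondrial ribosome genes 0 passed in GRMREmx1-cre against dflox (median -0.02), and of 82 cytosolic ribosome genes 4 fell (median -0.08, and -0.01 under quantile normalization), a share near the 4.84% of all genes that passed lower. Against GREmx1-cre 5 mitochondrial and 8 cytosolic ribosome genes fell (medians -0.06 and -0.11), where 6.91% of all genes passed lower. Of 15 genes of mitochondrial transcription and biogenesis, 1 passed, the polymerase Polg, lower by 0.18 (adjusted p = 0.0438). The 10 immediate-early genes, markers of recent activity, had 0 past the threshold in GRMREmx1-cre against dflox (median -0.07). In GRMREmx1-cre against GREmx1-cre 2 of the 10 rose (median 0.36), where 9.23% of all genes passed higher. In MREmx1-cre against dflox 3 of the 10 fell (median -0.58), where 2.60% of all genes passed lower. In GREmx1-cre against dflox 0 of the 10 passed (median -0.46). The interaction contrast of the 10 genes had a median of 1.11, from 0.62 to 1.87. It passed above 0 for 1 of them, where 0.512% of all genes passed above 0. The part of recent activity in the respiratory chain values was not tested.

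Cell type markers moved in the same comparison. In GRMREmx1-cre against dflox 6 of 9 microglia markers and 4 of 7 astrocyte markers rose (medians 0.36 and 0.34), 4 of 6 dentate granule cell markers fell (median -0.84), and of 9 neuron markers 2 fell and 1 rose (median -0.18), where 11.4% of all genes passed higher and 4.84% lower. Of 6 thalamus and habenula markers 2 rose, Tcf7l2 by 0.44 and Lef1 by 0.22 (median 0.10). On the arrays, the mean of the neuron markers relative to all arrays lay between -0.11 and -0.08 in GRMREmx1-cre, between 0.04 and 0.10 in GREmx1-cre, between -0.05 and 0.01 in MREmx1-cre and between -0.06 and 0.14 in dflox. The dentate granule cell mean lay between -0.84 and -0.58 in GRMREmx1-cre and between -0.59 and -0.33 in MREmx1-cre (3 of 6 fell, median -0.61), against 0.16 to 0.67 in dflox. The part of cell makeup in the respiratory chain values was not tested.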

How the data were processed

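RNA of 15 hippocampi was hybridised to single-colour Agilent arrays (Cy3). The submitters' processing notes name Agilent Feature Extraction 12.0 as the source of the deposited scanner files, and per the file headers the processed signal is an intensity in arbitrary units with spot flags; further array-level steps are not given in the sources used here. The deposited value table equals it at all 45018 spots. Control spots and 1281 outlier spots were left out, log2 intensity was taken minus each array's 75th percentile (821 to 1027), and spots of a probe were averaged. A probe was kept if its flag placed it well above background on 3 or more arrays, with the brightest probe per gene. Accessions were named through RefSeq genes (GRCm38.p6): 28223 of 41174 probes had a symbol. No probe of the 94 genes was saturated.

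Groups followed the sample titles. One limma group-means model (limma 3.58.1, R 4.3.3) over all 15 arrays gave 6 contrasts, with Benjamini-Hochberg adjustment over 22872 genes at 0.05. Figures used matplotlib 3.10.9. Scripts were tested on simulated data. Alternatives were quantile and median scaling, normexp (offset 50, on median signal and background, as the files used here hold no mean signal), the dim-probe filter, the mean of probes, a replicate block, array weights, only the groups compared, and each array left out. Members and lists were chosen with earlier results of these data known. Named genes were, per comparison, up to 10 rises and 10 falls past the threshold and the member of smallest p in each complex, plus isoform families, genes beside the detection limit, up to 4 called genes per list, and the 5 most alike profiles; Ndufs1, Ndufa6, Uqcrb, Sdha, Sdhb, Atp5j and Pvalb were added after their values were seen. Some genes that the rule covers are not reported here. The labels do not number the animals, so p-values measure the spread between these arrays, whose number limits the precision.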

Additional observations from a re-analysis of the deposited data

Results flagged for a closer look

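GREmx1-cre replicate 1 lay far below the other 3 arrays of its group for Cox4i1, at 6.73 against 6.93 to 6.94, and for Ndufa13, at 6.77 against 6.91 to 6.92. The mean of the tricarboxylic acid cycle genes was -0.11 on that array, against 0.05 to 0.07 on the other 3, and the mean of the thalamus and habenula markers was 0.84, against -0.28 to -0.22. The part of neighbouring tissue in the values of Cox4i1 and Ndufa13 was not tested. These are 4 of 200 groups of 4 arrays examined, and chance alone marks about 1 in 20 such groups. The difference between knockout and intact MR differed with GR for Ndufa5 (-0.38) and Ndufa9 (-0.39) by the interaction contrast of the limma fit.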

How the results depend on the processing

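Of 32 calls for named genes, 6 held whichever array was left out. Leaving out 1 array gave 0 to 0 calls among the 94 genes in GREmx1-cre against dflox, 0 to 2 in MREmx1-cre against dflox, 3 to 13 in GRMREmx1-cre against dflox, 10 to 26 against GREmx1-cre, 1 to 3 against MREmx1-cre and 0 to 2 for the interaction, and the medians ranged from 0.04 to 0.08, -0.04 to 0.02, -0.10 to -0.07, -0.17 to -0.11, -0.10 to -0.06 and -0.14 to -0.10 in the same order. GRMREmx1-cre against dflox had 6, 3 and 4 calls without GRMREmx1-cre replicates 1, 2 and 3, 6 without dflox replicate 2 and 7 without dflox replicate 1; against GREmx1-cre there were 14, 10 and 10 without GRMREmx1-cre replicates 1, 2 and 3 and 14 without GREmx1-cre replicate 2. Quantile normalization gave 5 calls and a median of -0.0282 against dflox, 11 and -0.0548 against GREmx1-cre, a median of -0.00512 against MREmx1-cre and -0.0317 for the interaction, and 18 of the 32 calls held. Of all genes, 14.2% passed against dflox and 15.7% against GREmx1-cre under it. Median scaling gave a median of 0.000876 in GREmx1-cre and 1 call in MREmx1-cre against dflox, 18 calls (0 higher, 18 lower) and -0.17 in GRMREmx1-cre against dflox, 0 calls and -0.14 against MREmx1-cre and 0 for the interaction. The shares of all genes called in these 4 comparisons, from MREmx1-cre against dflox on, were 4.5%, 14.2%, 1.98% and 0.796%. Normexp gave 0 calls in MREmx1-cre, 61 and -0.37 in GRMREmx1-cre against dflox, 71 and -0.42 against GREmx1-cre, 54 and -0.35 against MREmx1-cre, and 0 and -0.38 for the interaction. The shares of all genes called were 0.459%, 61.8%, 61.6%, 59.8% and 0.00437% in the same order. Normexp turned Ndufaf2 to -0.0589 in GRMREmx1-cre against dflox and Cox7c to -0.13 against dflox, -0.17 against GREmx1-cre, -0.00838 against MREmx1-cre and -0.0456 for the interaction. Without the dim-probe filter there was 1 call in MREmx1-cre against dflox, 1 in GRMREmx1-cre against MREmx1-cre and 0 for the interaction. Of all genes, 3.43%, 1.6% and 0.435% passed there. Array weights gave 19 calls against dflox, 41 against GREmx1-cre and 8 for the interaction, where 22.6%, 23.6% and 3.6% of all genes passed. With only the groups compared there was 1 call in MREmx1-cre against dflox, and in GRMREmx1-cre 6 against dflox, 9 against GREmx1-cre and 1 against MREmx1-cre. The shares of all genes were 3.04%, 13.3%, 12.1% and 1.84%. Leaving out both GREmx1-cre replicate 1 and MREmx1-cre replicate 2, chosen after seeing the data, gave 1 call against MREmx1-cre and 0 for the interaction, where 2.44% and 0.778% of all genes passed. With the replicate block there was 1 call in GREmx1-cre against dflox (Uqcrfs1), 2 in GRMREmx1-cre against MREmx1-cre and 1 for the interaction. Of all genes, 4.07%, 3.51% and 1.34% passed in the same order. The block ended the calls of Ndufa5 for the interaction (-0.39) and against MREmx1-cre (-0.26), Sdhaf4 against MREmx1-cre (0.21) and Cox7c against GREmx1-cre (0.17). Same-numbered arrays correlated at -0.03 to 0.19 in 21 pairs and others at -0.15 to 0.11 in 63, and 14 of 15 arrays correlated best with their own number, a hint from the data; the labels give them only a number. The causes of these changes were not tested.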
